A study of Mus musculus with 36 samples.

Results

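The genes described here encode 10 structural proteins of basement membranes: the type IV collagen chains Col4a1 and Col4a2, the laminin chains Lama2, Lamb1 and Lamc1, the nidogens Nid1 and Nid2, perlecan (Hspg2), and the collagens Col15a1 and Col18a1. They were taken by symbol from a deposited matrix of raw gene counts with 32544 symbols, and each of the 10 was found and had enough counts to be tested, as had 15338 genes in all. The counts were made from the livers of 36 C57BL/6N males that were 8 to 10 weeks old when the study began, 6 in each of 6 groups. The CCl4 groups received carbon tetrachloride, a toxin that hepatocytes turn into radicals, at 1 g/kg in olive oil by 2 intraperitoneal injections per week for 2, 6 or 12 months. The oil groups received olive oil alone for 2 or 12 months, and both were sampled 6 days past the final dose. The remaining group is titled as month 0 control while its treatment label reads olive oil, and month 6 has no oil group of its own.

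Basement membranes are thin sheets of matrix on which epithelium and endothelium rest. Laminin trimers, each of an alpha, a beta and a gamma chain, assemble at the cell surface, type IV collagen forms a covalently linked network beside them, and nidogens and perlecan tie the layers together. The liver is unusual in that its sinusoids have no continuous basement membrane, whereas bile ducts, portal vessels and capsule have one, and deposition of these proteins along sinusoids is a known feature of chronic liver injury. In bulk tissue, fewer cells of a type and less RNA per cell cannot be told apart, and the same holds for more of either.

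Col4a1 and Col4a2 lie head to head on chromosome 8 on opposite strands, and their exons overlap by 22 bases at the starts. Their promoter windows are therefore shown first, with those of the member whose RNA rose most (Nid1) and of the member that fell (Col18a1, the more distal of 2 starts). The windows run from 250 bases before to 50 bases after the start in RefSeq on GRCm38.p6, 5′ to 3′ on the strand of each gene. They are chr8:11312777-11313076 (minus strand) for Col4a1, chr8:11312555-11312854 (plus) for Col4a2, chr13:13437352-13437651 (plus) for Nid1 and chr10:77166481-77166780 (minus) for Col18a1. Capitals mark GC boxes (GGGCGG) and CCAAT boxes (CCAAT), either strand.
Col4a1: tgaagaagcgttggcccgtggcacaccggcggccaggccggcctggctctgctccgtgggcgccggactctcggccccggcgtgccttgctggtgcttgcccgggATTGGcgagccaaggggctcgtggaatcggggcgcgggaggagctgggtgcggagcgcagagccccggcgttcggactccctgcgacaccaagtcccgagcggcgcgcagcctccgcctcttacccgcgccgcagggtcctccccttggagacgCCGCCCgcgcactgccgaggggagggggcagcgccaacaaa
Col4a2: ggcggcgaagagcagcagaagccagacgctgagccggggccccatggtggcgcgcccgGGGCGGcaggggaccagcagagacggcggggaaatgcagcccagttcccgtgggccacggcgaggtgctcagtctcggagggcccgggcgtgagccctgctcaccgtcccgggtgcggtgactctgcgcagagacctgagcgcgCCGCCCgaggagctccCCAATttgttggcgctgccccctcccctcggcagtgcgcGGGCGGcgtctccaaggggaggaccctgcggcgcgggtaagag
Nid1: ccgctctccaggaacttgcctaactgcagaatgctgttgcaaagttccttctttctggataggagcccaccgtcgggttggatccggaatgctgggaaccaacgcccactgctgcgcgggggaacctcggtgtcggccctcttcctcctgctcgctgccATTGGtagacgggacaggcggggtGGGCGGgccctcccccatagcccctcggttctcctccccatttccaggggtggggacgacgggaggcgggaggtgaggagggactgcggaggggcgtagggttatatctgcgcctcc
Col18a1: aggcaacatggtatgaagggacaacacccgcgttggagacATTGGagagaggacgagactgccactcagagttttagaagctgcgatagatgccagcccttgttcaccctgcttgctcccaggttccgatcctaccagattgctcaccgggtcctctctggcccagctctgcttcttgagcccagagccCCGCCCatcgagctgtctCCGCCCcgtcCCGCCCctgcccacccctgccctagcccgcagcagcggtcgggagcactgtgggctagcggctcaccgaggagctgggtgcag

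The annotated starts of Col4a1 and Col4a2, at positions 11312826 and 11312805, are 21 bases apart, and the windows share 78 bases. A GC box at 11312812 to 11312817 lies between both starts, 9 bases downstream of the Col4a1 start and 7 bases downstream of the Col4a2 start. It therefore stands in both windows. The Col4a2 window holds 3 GC boxes and 1 CCAAT box, the Col4a1 window 1 of each, the Nid1 window 1 of each and the Col18a1 window 3 and 1. A GC box is found in 35.7% and a CCAAT box in 37.4% of the 32851 RefSeq promoter windows of that length. The AP-1 motif TGANTCA (7.81% of promoters) and the SMAD motif CAGACA (21% of promoters) were also searched on both strands, and neither is in these 4 windows. The other Col18a1 window, which is not shown (chr10:77113656-77113955, minus strand), holds 1 SMAD motif and no GC box, CCAAT box or AP-1 motif. The gene counts do not say which of its starts the Col18a1 reads came from. The motifs did not overlap each other. Of the 10 members, 8 had a window in the table, and Lamc1 and Nid2 had none. The 4 windows have a GC content of 74%, 73.7%, 64.7% and 63.3% in the order shown, against a median of 52.7% over all promoters.

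The libraries held 19403247 to 28917545 counts each. The lowest count of any member in any library was 57 (Lama2 in an oil liver of month 2), and the highest was 18147 (Col18a1 in a CCl4 liver of month 6). Hepatocyte markers summed to 54600 to 108000 CPM over all 36 livers (counts scaled to library size, here by TMM, a method that corrects for differences in RNA composition). Month 6 CCl4 replicate 2 stood apart for 4 members and had the highest mesothelial (143 CPM), cholangiocyte (305 CPM) and neutrophil (89.1 CPM) marker sums of its group. Month 12 oil replicate 2 stood apart for 3 members, with a mesothelial sum of 186 CPM that was the highest of all livers. Month 2 CCl4 replicate 1 had the highest neutrophil sum (223 CPM) and replicate 6 the highest intestinal sum (445 CPM) of all livers, and month 2 oil replicate 2 the highest pancreatic sum of its group (18000 CPM). Calls of members that change without these 3 livers and month 12 oil replicate 2, 4 in all, are given with both values. Pancreatic markers summed to 9.63 to 34200 CPM over all livers, with medians of 690, 406 and 1010 CPM in CCl4 livers of months 2, 6 and 12, 8800 and 4430 CPM in oil livers of months 2 and 12, and 1410 CPM at month 0. None of the 8 pancreatic markers was called in any comparison of CCl4 with oil. Month 2 CCl4 replicate 5 (34200 CPM) and month 12 oil replicate 4 (31600 CPM) had the highest sums and are not among the 4 livers. The part of pancreatic RNA in the results was not tested.

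**Figure D1:**
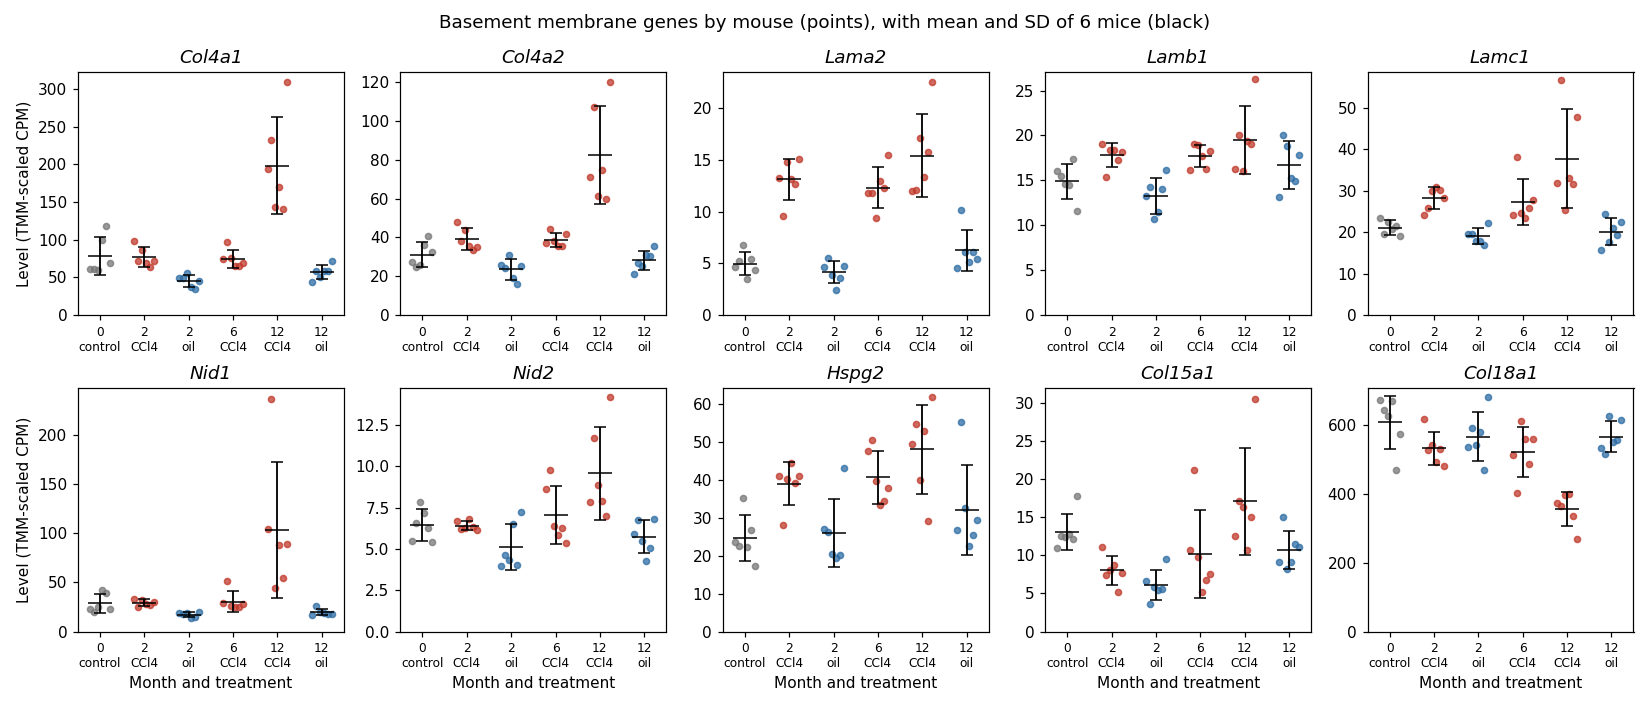
Level of each basement membrane gene in each liver (points; y axis, TMM-scaled CPM from 0) by month and treatment, with the mean and SD of 6 mice in black. By group mean, every member other than Col18a1 is highest in the livers after 12 months of CCl4, while Col18a1 is lowest there.

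At month 2, 5 members rose with CCl4 and none fell, against 7% of all tested genes called higher and 3.38% called lower (edgeR quasi-likelihood test, Benjamini-Hochberg adjusted p below 0.05). The 5 were Col4a1, Col4a2, Lama2, Lamb1 and Lamc1. Rises and falls at a given month are against oil livers, not against month 0. At month 6, set against the mean of both oil groups, 5 rose and none fell (7.71% and 3.68% of all genes), namely Col4a1, Col4a2, Lama2, Lamc1 and Nid1. At month 12, 8 rose and 1 fell (25.9% and 23.2% of all genes), so that Lamb1 was the only member without a call and Col18a1 the only one called lower. The median log2 fold change of the members was 0.58, 0.49 and 0.82 at months 2, 6 and 12, beside 0, 0 and 0.01 for all genes. Of all genes, 10.7%, 11.7% and 14.4% were at or above those medians. The comparisons at months 2, 6 and 12 share oil livers in part. The p-values set a difference of group means against a spread between livers that is estimated over all 36 libraries.

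Scaling by library totals alone, in place of TMM, shifted the all-gene median by 0.20, 0.31 and 0.56 log2 units at months 2, 6 and 12, and the fold changes here are relative to that shift. The members called under library totals were 8 higher at month 2, 9 higher at month 6 and 9 higher with none lower at month 12. Of all genes, 20.6%, 57.9% and 67.4% were then called higher, and 1.17%, 1.15% and 3.86% lower. Without the 4 libraries named above, Col4a1 (0.69, adjusted p = 0.0528) and Lamb1 (0.38, adjusted p = 0.0811) lost their calls at month 2 and 3 members remained called. Without month 6 CCl4 replicate 2, Col4a1 (0.46, adjusted p = 0.0761), Lamc1 (0.37, adjusted p = 0.0502) and Nid1 (0.52, adjusted p = 0.166) lost theirs at month 6, which left 2. Without month 2 oil replicate 6, in contrast, 8 were called at month 6. Over single libraries left out, 1049 to 2376 of all 15338 tested genes were called at month 6.

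**Figure D2:**
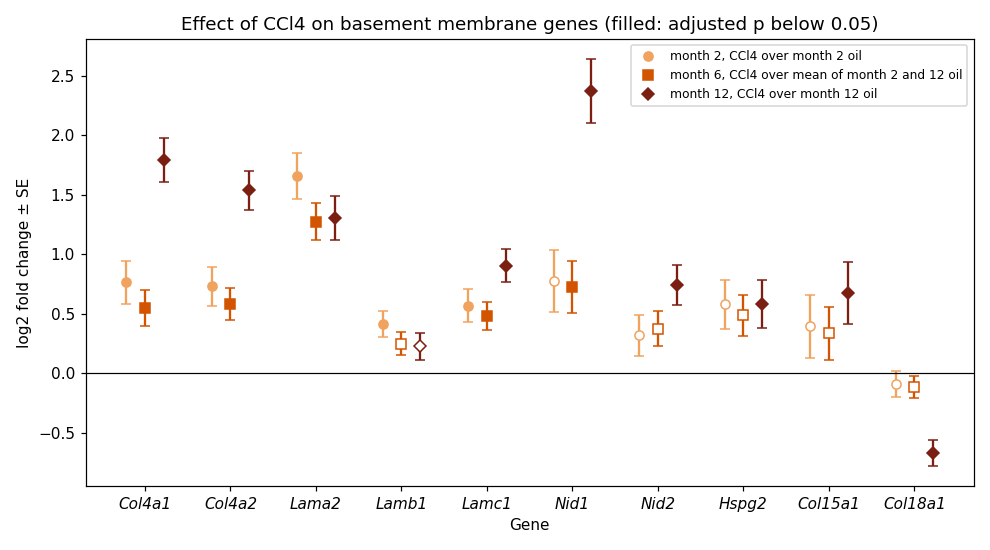
Log2 fold change with its SE (y axis) of each basement membrane gene (x axis) for CCl4 at months 2, 6 and 12, with filled symbols for adjusted p below 0.05. Nid1, Col4a1 and Col4a2 have the highest effects among members at month 12, and Lama2 is raised at each month. Col18a1 is below 0 at each month and called at month 12 only.

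Col4a1 and Col4a2 encode the chains that combine into the most widespread type IV collagen trimer. Col4a1 was at 63.2, 71.9 and 98.4 CPM (lowest, median, highest) in month 2 CCl4 livers, against 34.2, 47.3 and 55.7 CPM in month 2 oil livers. The 2 groups did not overlap, as was the case, in this direction, for 5 members and 4.64% of all genes. The log2 fold change was 0.77 (SE 0.18, adjusted p = 0.00503). Month 6 CCl4 livers, at 65.4, 71.3 and 97 CPM, gave 0.55 against both oil groups (SE 0.15, adjusted p = 0.0158), and their lowest livers lay within the range of the oil livers. At month 12, Col4a1 was at 141, 182 and 309 CPM in CCl4 livers, against 43.8, 58.4 and 72.2 CPM in oil livers. Each CCl4 liver was thus above each oil liver, as for 6 members and 12.1% of all genes, and the log2 fold change was 1.79 (SE 0.18, adjusted p = 1.47e-09).

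Col4a2 was at 33.6, 36.9 and 47.9 CPM in month 2 CCl4 livers, against 16, 24.5 and 31 CPM in month 2 oil livers, again without overlap (0.73, SE 0.16, adjusted p = 0.00316). It was the only member whose month 6 CCl4 livers, at 35.5, 37.5 and 44.3 CPM, were all above every liver of both oil groups, which held for 0.867% of all genes (0.58, SE 0.14, adjusted p = 0.00414). At month 12 it was at 59.5, 73.1 and 120 CPM in CCl4 livers, against 21.2, 28.6 and 35.3 CPM in oil livers (1.54, SE 0.16, adjusted p = 2.88e-09). The effect at month 12 exceeded that at month 2 by 1.03 log2 units for Col4a1 (SE 0.25, adjusted p = 0.00355) and by 0.81 for Col4a2 (SE 0.23, adjusted p = 0.00968). Tests of that difference called 3 members higher and 1 lower (11.2% and 10.1% of all genes), and under library totals 5 higher and none lower (33.3% and 2.86% of all genes). Leaving out any single library kept both Col4a calls at months 2 and 12 and in the difference.

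Across the 36 livers, the log2 levels of Col4a1 and Col4a2 had a Pearson r of 0.97, the highest among the 45 pairs of members, and their deviations from the group means had an r of 0.927. These r values describe livers that share groups, and depth and tissue composition enter both genes. Per kilobase of exon, Col4a1 stood above Col4a2 in each group, at a ratio of 1.66 to 1.83 in month 2 CCl4 livers and 1.59 to 1.89 in month 2 oil livers. At month 12 the ratio was 1.92 to 2.41 in CCl4 livers and 1.69 to 1.92 in oil livers. The difference in log2 ratio was 0.25 at month 12 (two-sided exact permutation test, adjusted p = 0.00541 over 10 tests) and 0.02 at month 2 (exact permutation test, adjusted p = 0.732). With 6 against 6 livers the smallest p is 0.00216, before adjustment. The promoter windows printed above share a stretch, but the gene counts do not say which start the reads came from.

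**Figure D3:**
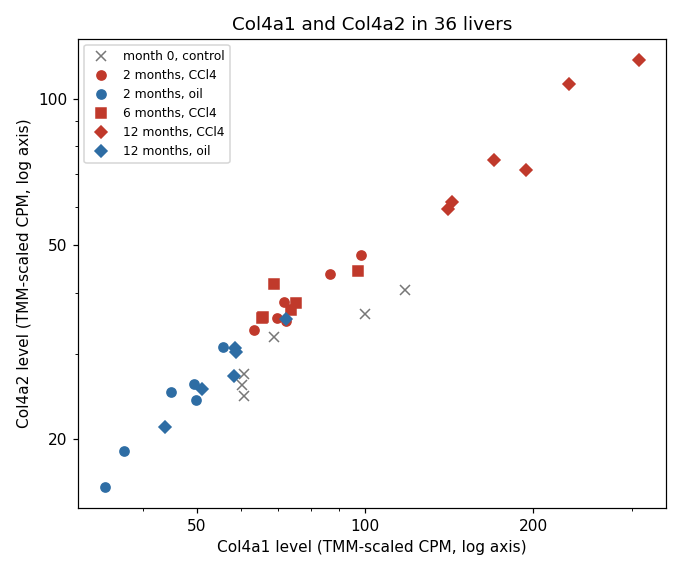
Col4a2 level (y axis) against Col4a1 level (x axis) in each of 36 livers, both in TMM-scaled CPM on log axes, by month and treatment. The points lie along a line (Pearson r of log2 levels 0.97), with the 6 livers after 12 months of CCl4 at the upper end.

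The other type IV chains, Col4a3 to Col4a6, were less abundant. Of these 4, 1 was called higher at month 2 and at month 6, and 3 at month 12, with none lower. Of all genes, 7%, 7.71% and 25.9% were called higher at these months. Col4a6 was the one without a call at month 12 (0.131, adjusted p = 0.805), but it was called without month 12 oil replicate 2 (0.92, adjusted p = 0.0161) and without the 4 livers (adjusted p = 0.019). At month 6 it was at 0.93 (adjusted p = 0.0573), and at 1.32 without the 4 livers (adjusted p = 0.000766). Col4a5, which partners with Col4a3 and Col4a4 or with Col4a6, was at 11.2, 12.9 and 15.4 CPM in month 2 CCl4 livers, against 2.92, 3.4 and 4.88 CPM in month 2 oil livers. Its log2 fold change was 1.82 at month 2, 1.80 at month 6 and 2.06 at month 12 (adjusted p = 6.58e-05, 1.78e-06 and 4.49e-07). Col4a3 and Col4a4, in contrast, were at 3.15 and 1.67 at month 12 (adjusted p = 4.59e-07 and 1.39e-05), and at -0.26 and 0.08 at month 2 (adjusted p = 0.78 and 0.913). In month 12 CCl4 livers Col4a3 ran from 1.42 over a median of 8.21 to 33.1 CPM, against 1.04, 1.17 and 1.74 CPM in oil livers, so the groups overlapped. Without month 12 CCl4 replicate 2 its fold change was 2.43. The difference between month 12 and month 2 was called for Col4a3 (3.41, adjusted p = 0.000123) and Col4a4 (1.59, adjusted p = 0.0049).

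Lama2 encodes the alpha chain of merosin, the laminin of muscle and peripheral nerve. Its level was 9.6, 13.1 and 15.1 CPM in month 2 CCl4 livers, against 2.45, 4.25 and 5.5 CPM in month 2 oil livers, without overlap. The log2 fold change of 1.66 was the highest among the members at that month (SE 0.19, adjusted p = 3.43e-07). Month 6 CCl4 livers were at 9.4, 12 and 15.5 CPM, where one month 12 oil liver (replicate 2, 10.2 CPM) reached into their range (1.27, SE 0.16, adjusted p = 6.62e-07). At month 12 the levels were 12, 14.5 and 22.5 CPM in CCl4 livers, against 4.51, 5.73 and 10.2 CPM in oil livers (1.31, SE 0.19, adjusted p = 6.73e-07). The effect at month 12 minus that at month 2 was -0.36 (SE 0.26, adjusted p = 0.365), which did not pass the test. No single library decided these calls.

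Lamb1 and Lamc1 encode the beta and gamma chains shared by most laminins of early and vascular basement membranes. Lamc1 was at 24.1, 29 and 30.8 CPM in month 2 CCl4 livers and 16.8, 18.7 and 22.1 CPM in month 2 oil livers (0.57, SE 0.14, adjusted p = 0.00722). It was at 23.3, 25.2 and 38.1 CPM in month 6 CCl4 livers (0.48, SE 0.12, adjusted p = 0.00638), with the highest value in replicate 2. At month 12 it was at 25.3, 32.4 and 56.6 CPM in CCl4 livers and 15.7, 20.3 and 24.4 CPM in oil livers (0.91, SE 0.14, adjusted p = 2.77e-06). At months 2 and 12 no oil liver reached the lowest CCl4 liver.

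Lamb1 changed less. Its level was 15.4, 18.3 and 19 CPM in month 2 CCl4 livers and 10.7, 13.7 and 16.2 CPM in month 2 oil livers, which overlapped (0.42, SE 0.11, adjusted p = 0.0143). At month 6 the log2 fold change was 0.25 (SE 0.10, adjusted p = 0.089). At month 12 the levels were 16, 19.2 and 26.3 CPM in CCl4 livers and 13.1, 16.6 and 20.1 CPM in oil livers, and 0.23 (SE 0.11) did not pass the test (adjusted p = 0.0911). Without month 12 CCl4 replicate 1 or 3 it did, with a highest log2 fold change of 0.30. Under library totals alone Lamb1 was called higher at month 12.

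The ratio of Lamb1 to Lamc1 per kilobase was 0.295 to 0.529 in month 12 CCl4 livers and 0.602 to 0.895 in month 12 oil livers, with no overlap. The difference in log2 ratio was -0.64 at month 12 (exact permutation test, adjusted p = 0.00541) and -0.145 at month 2 (adjusted p = 0.171, exact). Lama2 over Lamc1 was 0.188 to 0.277 in month 2 CCl4 livers and 0.0699 to 0.142 in month 2 oil livers, a log2 difference of 1.12 (exact permutation test, adjusted p = 0.00541). At month 12 that difference was 0.46 (exact permutation test, adjusted p = 0.133), and 0.65 without month 12 CCl4 replicate 2 (adjusted p = 0.018, exact). The ratios within a liver do not depend on how its library was scaled.

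**Figure D4:**
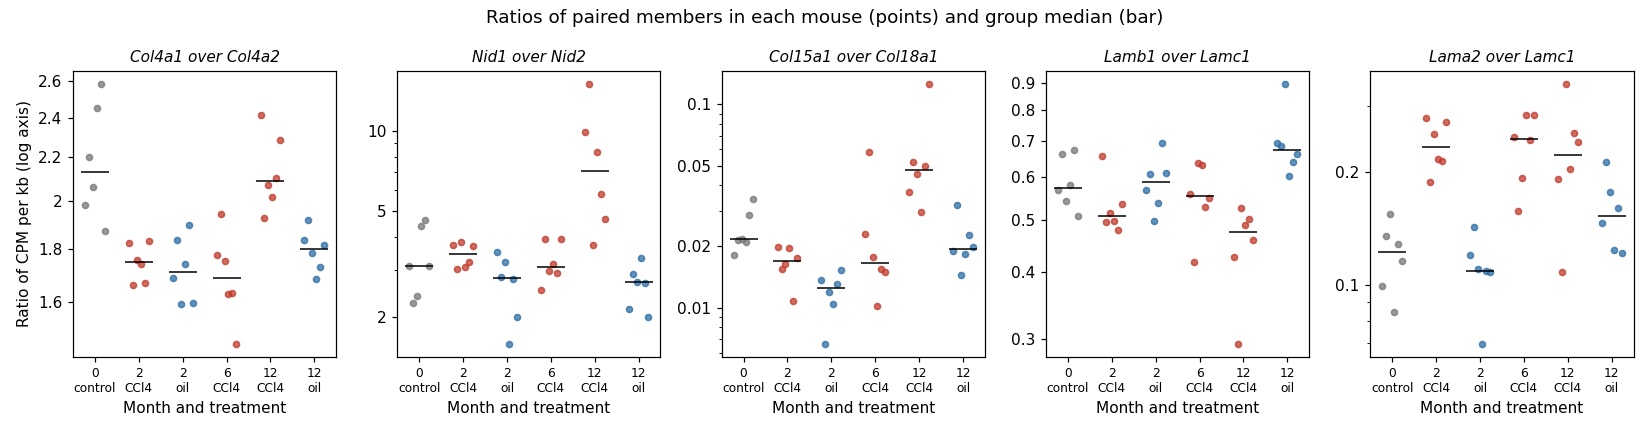
Ratio of CPM per kilobase of exon between paired members (y axis, log scale) in each liver (points) with the group median (bar), by month and treatment. By group median, Nid1 over Nid2 and Col15a1 over Col18a1 are highest, and Lamb1 over Lamc1 lowest, in month 12 CCl4 livers.

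The laminin alpha chains, encoded by 5 genes, set the receptors that a trimer binds. The share of each in the summed level per kilobase of the 5 differed between groups, and these shares were not tested. In month 2 CCl4 livers Lama2 held 18.7% ± 1.75 (SD, n = 6), against 7.23% ± 1.07 in month 2 oil livers, and the lowest CCl4 liver (16%) was above the highest oil liver (8.27%). Lama5, the alpha chain of many epithelial and vascular basement membranes, held 11.9% ± 2.47 and 11.7% ± 1.85 in these groups. In month 12 CCl4 livers, however, Lama5 held 42.5% ± 10.3, against 12.4% ± 2.25 in month 12 oil livers. Lama1 held 9.21% ± 4.46 in month 12 CCl4 livers and 28.2% ± 3.73 in oil livers, and Lama3 6.03% ± 2.15 and 26.2% ± 6.15.

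Of 7 laminin genes outside the members, none was called at month 2, 1 was higher at month 6 (Lama4), and 4 were higher and 2 lower at month 12. The month 6 share was 14.3%, beside 7.71% of all genes. At month 12 the shares were 57.1% and 28.6%, beside 25.9% and 23.2% of all genes. At month 2, Lama3, Lama4 and Lamb2 passed an unadjusted p below 0.05 in edgeR, and DESeq2 and limma-voom called 0 of the 7. With only the groups compared in the fit, Lama4 (adjusted p = 0.0108) and Lamb2 (adjusted p = 0.00562) were called at month 2, and Lamb2 without the 4 livers as well (adjusted p = 0.0419). Lamb2, a beta chain of vascular and synaptic laminins, was at 0.41 at month 6 (adjusted p = 0.0889) and 0.39 at month 12 (adjusted p = 0.0721). Without the 4 livers it was at 0.57 and 0.74 (adjusted p = 0.000278 and 1.16e-05), and limma-voom called it at both months (adjusted p = 0.0271 and 0.0125). Lama5 was at 12.5, 22.4 and 45.2 CPM in month 12 CCl4 livers, against 4.01, 4.71 and 7.36 CPM in oil livers (2.31, SE 0.24, adjusted p = 1.61e-09). Lama1 was at 1.84, 4.15 and 5.85 CPM in month 12 CCl4 livers, against 9.15, 10.2 and 10.3 CPM in oil livers (-1.25, SE 0.19, adjusted p = 1.72e-06). Lama3 was at 1.73, 3.7 and 4.2 CPM, against 7.29, 10.2 and 13.5 CPM (-1.65, SE 0.23, adjusted p = 6.25e-07). The groups were apart for all 3 genes. Lamb3, a beta chain that combines with Lama3 in epithelial laminin, rose at month 12 (0.79, adjusted p = 3.68e-05), whereas Lama3 fell.

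Of these laminins, Lamc3 had the highest log2 fold change at month 12 (3.07, adjusted p = 3.12e-06), and 2.10 without month 12 CCl4 replicate 6, which held 79.7 CPM where the group median was 9.2 CPM. Its lowest CCl4 liver (5.89 CPM) was below the highest oil liver (6.22 CPM). Lama4, an endothelial alpha chain, was at 0.43 at month 12 (adjusted p = 0.0222), a call lost without any of 4 single libraries (month 12 CCl4 replicate 2 and oil replicates 1, 3 and 4), and at 0.41 at month 6 (adjusted p = 0.0396), lost without any of 12. The effect at month 12 differed from that at month 2 for Lama5 (1.98), Lamb3 (0.79), Lamc3 (2.65), Lama1 (-1.55) and Lama3 (-1.10), with adjusted p from 4.83e-05 to 0.0132. Under library totals alone the difference for Lama3 was -0.75 (adjusted p = 0.0616).

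**Figure D5:**
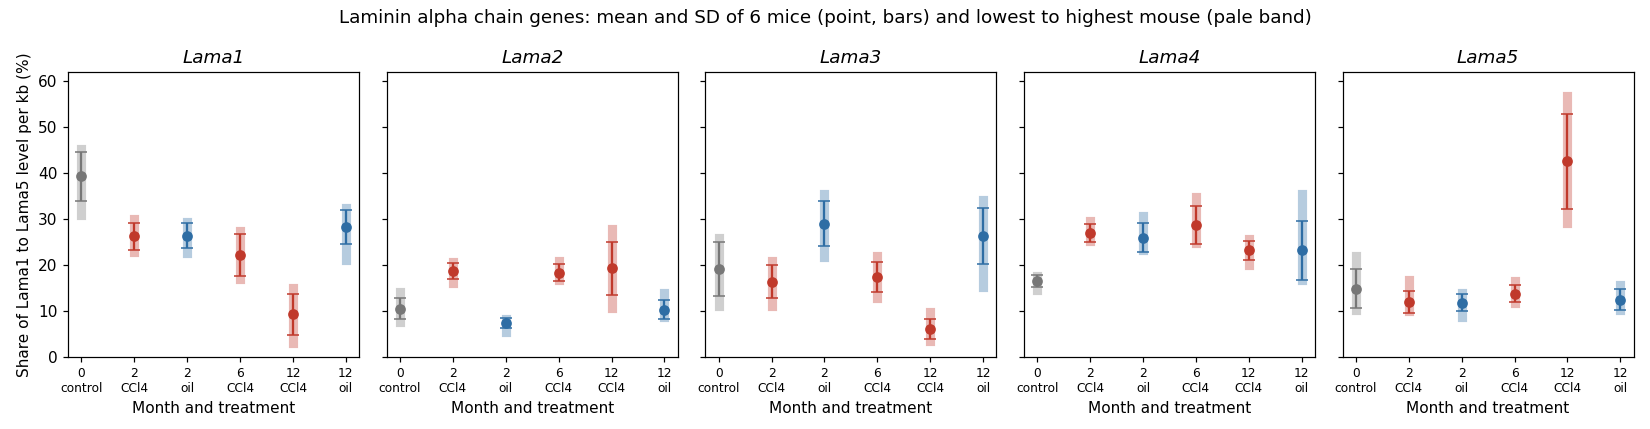
Share of each laminin alpha chain gene in the summed level per kilobase of Lama1 to Lama5 (y axis, percent) by month and treatment, as mean and SD of 6 mice (point and bars) and lowest to highest mouse (pale band). Lama5 averages 42.5% in month 12 CCl4 livers and 12.4% in month 12 oil livers.

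Nid1 and Nid2 encode nidogens, which bridge laminin and type IV collagen. Nid1 was at 25.3, 29.4 and 33.3 CPM in month 2 CCl4 livers, against 13.9, 18.1 and 19.4 CPM in month 2 oil livers. The groups did not overlap, yet 0.77 (SE 0.26) just missed the threshold over all genes (adjusted p = 0.0503). It did so too without any single library (adjusted p from 0.0501 to 0.103). DESeq2 (adjusted p = 0.0292), limma-voom (0.0399), the replicate block (0.0411), the filter at 1 CPM (0.0481) and the fit of only the groups compared (0.000262) called it, as did library totals. In month 6 CCl4 livers Nid1 was at 24.5, 26.8 and 51.2 CPM, the lowest of which lay within the oil range (0.73, SE 0.22, adjusted p = 0.0256). At month 12 it was at 44.6, 88.3 and 236 CPM in CCl4 livers, against 17, 18.7 and 26.2 CPM in oil livers.

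The fold change of Nid1 at month 12, 2.37 on the log2 scale (SE 0.27, adjusted p = 9.34e-09), was the highest among the members. It was 1.96 without the liver at 236 CPM (month 12 CCl4 replicate 2), and the remaining CCl4 livers, at 44.6 to 104 CPM, were all above the oil livers. The effect at month 12 exceeded that at month 2 by 1.60 (SE 0.37, adjusted p = 0.00176), the largest such difference among members. The coefficient of variation of Nid1 over mice was 67.3% in month 12 CCl4 livers and 16.6% in month 12 oil livers.

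Nid2 was less abundant, at 6.98, 8.4 and 14.2 CPM in month 12 CCl4 livers and 4.29, 5.71 and 6.84 CPM in month 12 oil livers (0.74, SE 0.17, adjusted p = 0.000502), without overlap. At months 2 and 6 its log2 fold change was 0.32 (SE 0.17, adjusted p = 0.249) and 0.38 (SE 0.15, adjusted p = 0.0936). The gene shares 8.45% of its exonic bases with Rtraf on the other strand, as Lama2 shares 3.86% with Gm48084 and Nid1 2.06% with Gm48682. Col4a1 (0.295%), Col4a2 (0.982%) and Col15a1 (0.221%) share smaller parts, those of Col4a1 with Col4a2. Whether the counting used strand is not stated. Nid1 over Nid2 per kilobase was 3.74 to 15 in month 12 CCl4 livers and 1.99 to 3.33 in month 12 oil livers, a log2 difference of 1.45 (exact permutation test, adjusted p = 0.00541). At month 2 it was 0.42 (exact permutation test, adjusted p = 0.0495), a call lost on leaving out any of 10 single livers.

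Hspg2 encodes perlecan, a large heparan sulfate proteoglycan that binds growth factors. It was at 28.1, 40.6 and 44.6 CPM in month 2 CCl4 livers, against 19.5, 23.5 and 43.1 CPM in month 2 oil livers, where oil replicate 6 reached the CCl4 range (0.58, SE 0.20, adjusted p = 0.0618). Without that liver, or without month 2 CCl4 replicate 2 (28.1 CPM), the test was passed, with adjusted p down to 0.00852. With all livers, DESeq2 (adjusted p = 0.0489), limma-voom (0.0408), the replicate block (0.0487) and the fit of only the groups compared (0.0475) called it, as did library totals. At month 6 the log2 fold change was 0.49 (SE 0.17, adjusted p = 0.0604), and 0.58 without the 4 livers named above (adjusted p = 0.0158). At month 12 Hspg2 was at 29.1, 51.3 and 62 CPM in CCl4 livers, against 22.5, 28.1 and 55.3 CPM in oil livers, which overlapped (0.58, SE 0.20, adjusted p = 0.0166). Leaving out month 12 oil replicate 4 ended this call (adjusted p = 0.0538). The effects at months 12 and 2 differed by 0.00 (SE 0.29, adjusted p = 0.994), so the estimate allows a change in either direction.

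Col15a1 and Col18a1 encode the collagens XV and XVIII, which share a domain layout and sit at the outer face of basement membranes, and Col18a1 is the source of endostatin. Col18a1 RNA is made by hepatocytes in the liver. Per kilobase of exon Col18a1 was the most abundant member in each group, at 50.8 ± 7.08 CPM per kilobase in month 12 CCl4 livers and 80.8 ± 6.4 in month 12 oil livers (SD, n = 6). In month 12 CCl4 livers it was at 268, 370 and 401 CPM, against 516, 554 and 628 CPM in oil livers. The CCl4 livers were all below the oil livers, as for 10.2% of all genes, and the log2 fold change was -0.67 (SE 0.11, adjusted p = 4.31e-06). Under library totals alone it was -0.12 (adjusted p = 0.299), with the median of all genes at 0.56. Of 8 hepatocyte markers, 5 fell at month 12 (62.5%, beside 23.2% of all genes) and none rose (median -0.44). Their sums were 58100 to 97000 CPM in CCl4 livers and 54600 to 99200 CPM in oil livers. At months 2 and 6 the log2 fold change of Col18a1 was -0.09 and -0.12 (SE 0.11 and 0.09, edgeR adjusted p = 0.661 and 0.463), and under library totals 0.10 and 0.19. The difference between months 12 and 2 was -0.58 (SE 0.15, adjusted p = 0.00537), where 3 of the 8 hepatocyte markers were lower (median -0.33). The part of the hepatocyte share in these values was not tested.

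Col15a1 was at 10.7, 15.7 and 30.6 CPM in month 12 CCl4 livers, against 8.21, 10.1 and 15 CPM in month 12 oil livers, with overlap (0.68, SE 0.26, adjusted p = 0.0293). Month 12 CCl4 replicate 6 held the highest value, and without it the log2 fold change was 0.45 (adjusted p = 0.138). The call was lost as well without oil replicate 1, 3 or 4. At month 2 the levels were 5.15, 7.83 and 11.1 CPM in CCl4 livers and 3.56, 5.71 and 9.47 CPM in oil livers (0.40, SE 0.26, adjusted p = 0.381). In month 6 CCl4 livers they were 5.19, 8.69 and 21.2 CPM (0.34, SE 0.22, adjusted p = 0.368), and -0.0069 without replicate 2. Col15a1 over Col18a1 per kilobase was 0.0296 to 0.126 in month 12 CCl4 livers and 0.0145 to 0.0322 in month 12 oil livers, a log2 difference of 1.30 (exact permutation test, adjusted p = 0.00866). At month 2 it was 0.51 (exact permutation test, adjusted p = 0.0495), lost on leaving out any of 9 single livers.

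By level per kilobase, the order in month 12 CCl4 livers was Col18a1 (50.8 ± 7.08), Col4a1 (26.6 ± 8.61), Nid1 (14.8 ± 9.95), Col4a2 (12.4 ± 3.81), Lamc1 (4.55 ± 1.44), Hspg2 (3.36 ± 0.822), Col15a1 (2.69 ± 1.11), Lamb1 (1.97 ± 0.377), Nid2 (1.85 ± 0.542) and Lama2 (0.945 ± 0.246), each as CPM per kilobase with the SD of 6 livers. Neighbours in this order from Nid1 to Col4a2 and from Lamc1 to Nid2 differed by less than the larger of their SDs. Month 12 oil livers had Col4a2 (4.28 ± 0.739) above Nid1 (2.85 ± 0.473), while Col18a1 and Lama2 were at the ends in each of the 6 groups. The 10 genes together took 0.0942% to 0.144% of all counts in month 12 CCl4 livers and 0.0576% to 0.077% in month 12 oil livers.

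Among the CCl4 groups, none of the members differed between month 6 and month 2 (0.502% of all genes called), with 0 at an unadjusted p below 0.05 and 0 by DESeq2 and limma-voom. Their log2 fold changes ran from -0.09 to 0.35. Between months 12 and 6, 6 rose (20.6% of all genes) and 1 fell (18.6%). Nid1 (1.75), Col4a1 (1.42), Col4a2 (1.09), Col15a1 (0.74), Lamc1 (0.46) and Nid2 (0.45) were higher at month 12 and Col18a1 (-0.55) lower, with adjusted p from 2.37e-07 to 0.0335. Col15a1 and Nid2 lost this call without single livers (4 and 6 of 12, among them month 12 CCl4 replicate 6), and with the 2 groups fitted alone 4 members were called. Lama2 was at 0.33 and Hspg2 at 0.24 (adjusted p = 0.152 and 0.363). Month 12 livers lay wholly above month 6 livers for 2 members, Col4a1 and Col4a2 (8.59% of all genes), and wholly below them for Col18a1 (5.93%).

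In oil livers, no member differed between months 12 and 2 (0.0717% of all genes called by edgeR), 0 by DESeq2 and limma-voom, while 3 passed an unadjusted p below 0.05. These were Lama2 (0.60), Col15a1 (0.81) and Lamb1 (0.32), chosen here for that p. All 10 log2 fold changes were 0 or above, with a median of 0.28. Against the month 0 livers, month 2 oil livers were lower in 3 members and higher in none (16.4% and 14.8% of all genes). Col4a1 was at 34.2 to 55.7 CPM in month 2 oil livers, against 60.2 to 118 CPM at month 0 (-0.79, SE 0.18, adjusted p = 0.00115). Col15a1 was at 3.56 to 9.47 CPM, against 11 to 17.8 CPM (-1.10, SE 0.27, adjusted p = 0.00188), and Nid1 at 13.9 to 19.4 CPM, against 19.8 to 42.2 CPM (-0.73, SE 0.26, adjusted p = 0.031). For none of these 3 genes did the groups overlap, as for 6.92% of all genes in this direction, but Nid1 lost its call without any of 4 single livers and under library totals (-0.50, adjusted p = 0.146). The 2 highest month 0 livers in Col4a1 and Nid1 were replicates 4 and 5, which also had the highest cholangiocyte sums of that group (274 and 418 CPM, the others 61.1 to 130 CPM). In this comparison 6 of 7 neutrophil and 2 of 8 cholangiocyte markers were lower and 5 of 7 mesothelial markers higher, and their part was not tested. Outside the members, 2 of 4 type IV chains and 3 of 7 laminins were higher than at month 0. So were 2 of 17 other basement membrane proteins and 4 of 6 fibrillar collagens, with none lower in any of these lists. Of 14 receptors, 3 were lower and none higher. Of 15 collagen folding genes, 7 were lower and 1 higher, and of 14 degradation genes 3 and 4. By group mean at month 0, month 2 CCl4 and month 6 CCl4, Col4a1 was at 78.2, 76.9 and 74.3 CPM. In that order Nid1 was at 28.5, 29.5 and 30.5 CPM and Nid2 at 6.45, 6.41 and 7.04 CPM. Col15a1 (13.1, 8.02 and 10.2 CPM) and Col18a1 (609, 533 and 522 CPM) had lower means in CCl4 livers. Col4a2, Lama2, Lamb1, Lamc1 and Hspg2 had higher means in both these CCl4 groups than at month 0. These CCl4 groups were not tested against month 0. Age, injection of oil and any difference in handling between month 0 and month 2 cannot be told apart.

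Of 17 other basement membrane proteins, 4 rose at month 2, 3 at month 6 and 8 at month 12, where 2 fell. Called higher were thus 23.5%, 17.6% and 47.1% of the list, beside 7%, 7.71% and 25.9% of all genes. The share that fell at month 12 was 11.8%, beside 23.2%. Pxdn, the peroxidase that crosslinks type IV collagen, and Sparc, which binds it, were higher at month 2 (0.74 and 0.91, adjusted p = 1.7e-05 and 0.00096). At month 6 they were at 0.49 and 0.64 (edgeR adjusted p = 0.000298 and 0.00444). In month 12 CCl4 livers Pxdn was at 15.4, 17.8 and 20.2 CPM, against 14.4, 15.9 and 19.4 CPM in oil livers. Sparc was at 93.5, 120 and 151 CPM there, against 41.1, 61.1 and 96.9 CPM, and the groups overlapped for both genes. The means of month 12 CCl4 and oil livers were 122 and 66.3 CPM for Sparc and 17.8 and 16.5 CPM for Pxdn. At month 12 the smallest p belonged to Fras1 (-1.51, adjusted p = 4.45e-09), Egflam (3.38, adjusted p = 8.68e-08) and Papln (-1.81, adjusted p = 2.12e-07). Egflam was at 1.85, 2.99 and 17.5 CPM in month 12 CCl4 livers, against 0.317, 0.524 and 0.95 CPM in oil livers, and its log2 fold change was 2.68 without month 12 CCl4 replicate 6. The median of this list was 0.57, 0.29 and 0.46 at months 2, 6 and 12.

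Of 14 receptors for basement membranes, 3 rose at month 2, 2 at month 6, and 6 at month 12, where 2 fell. The shares called higher were 21.4%, 14.3% and 42.9%, beside 7%, 7.71% and 25.9% of all genes, and 14.3% fell at month 12, beside 23.2%. Itga9, an integrin alpha chain, rose at months 2 and 6 (0.47 and 0.35, adjusted p = 0.00495 and 0.0141), but was at 0.37 at month 2 without the 4 livers (adjusted p = 0.0821). The month 2 calls of Ddr2 and Itga6 were each lost without any of several single livers (8 and 7 of 12), and that of Itga6 at month 6 without any of 12 among 18. Itga2, Itga6 and Ddr1, receptors for collagen or laminin, had month 12 log2 fold changes of 3.49, 2.57 and 2.58 (adjusted p = 1.07e-08, 7.46e-08 and 2.76e-07). Itga6 was at 19.4, 25.7 and 62.5 CPM in month 12 CCl4 livers, against 3.54, 6.78 and 7.8 CPM in oil livers. Itga2 was low in level, at 1.63, 2 and 9.05 CPM, against 0.181, 0.284 and 0.405 CPM. With single libraries left out, its lowest log2 fold change was 2.89. Itga7 (-0.48) and Sdc4 (-0.70) were lower at month 12 (adjusted p = 0.0017 and 0.000169), although under library totals Itga7 was at 0.07 and Sdc4 at -0.15 (adjusted p = 0.371), neither of them called. The medians of the list were 0.26, 0.14 and 0.26.

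Of 15 tested genes for collagen folding and modification, 3 rose at month 2, while 5 rose and 1 fell at month 6. At month 12, 4 rose and 2 fell. The shares called higher were 20%, 33.3% and 26.7% of this list, beside 7%, 7.71% and 25.9% of all genes. Those called lower at months 6 and 12 were 6.67% and 13.3%, beside 3.68% and 23.2% of all genes. Colgalt1, a collagen galactosyltransferase, was at 0.24 at month 2 and 0.59 at month 12 (adjusted p = 0.0137 and 5.51e-09). P3h2, a prolyl hydroxylase with type IV collagen among its substrates, was at 0.53, 0.60 and 0.64 at months 2, 6 and 12 (adjusted p = 0.0228, 0.00158 and 0.000644), and at 0.38 at month 2 without the 4 livers (adjusted p = 0.22). Plod2, a lysyl hydroxylase, likewise missed the test at month 2 without them (adjusted p = 0.0733, against 0.0251 with them). Crtap, a partner of prolyl hydroxylase, rose at month 12 (1.04, adjusted p = 1.32e-05), and Colgalt2, the other galactosyltransferase, fell at months 6 and 12 (-1.23 and -1.32, adjusted p = 0.00327 and 0.000652). Of 14 genes for matrix degradation and its inhibition, 4 rose at month 2, 2 rose and 1 fell at month 6, and 8 rose and 3 fell at month 12. Called higher were 28.6%, 14.3% and 57.1% of them, beside 7%, 7.71% and 25.9% of all genes. At months 6 and 12, 7.14% and 21.4% were lower, beside 3.68% and 23.2% of all genes. Mmp2, a gelatinase that cleaves type IV collagen, was at 11.5, 15.1 and 16.9 CPM in month 2 CCl4 livers, against 2.31, 3.27 and 6.47 CPM in oil livers (2.03, adjusted p = 5.45e-06). At month 6 it was at 1.41 (adjusted p = 3.38e-05). Bmp1, a procollagen proteinase, was lower at month 12 (-0.56, adjusted p = 5.25e-07), and at -0.0126 under library totals. Timp3 was higher at that month (0.90, edgeR adjusted p = 0.000157), a call kept without any single library.

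Fibrillar collagens build the scar itself. Of 6 genes, 5 rose at month 2, 4 at month 6 and 1 at month 12 (Col5a2, 0.96, adjusted p = 6e-04), with medians of 1.2, 1.04 and 0.38. The shares called higher were 83.3%, 66.7% and 16.7%, beside 7%, 7.71% and 25.9% of all genes. In the test of month 12 against month 2, 1 of the 6 was lower and none higher (10.1% and 11.2% of all genes). Between oil months 12 and 2 none of the 6 was called, with a list median of 0.59 (0.01 for all genes). Between CCl4 months 12 and 6, 1 was lower (18.6% of all genes) and none higher (20.6%), with a median of -0.28. Col1a2 was at 64.3, 86 and 108 CPM in month 2 CCl4 livers, against 17.7, 26.2 and 55 CPM in month 2 oil livers (1.44, adjusted p = 0.00222). In month 12 CCl4 livers it was at 53.2, 72.3 and 75.3 CPM, against 17.7, 41.6 and 86.2 CPM in oil livers. Col1a1 and Col1a2 passed the test at month 12 with limma-voom (1.02 and 0.75), with the replicate block and under library totals (1.15 and 1.00), and Col1a1 without month 12 oil replicate 2 or 6.

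Marker genes of several cell types moved as well, and their part in the results above was not tested. Of all genes, 7%, 7.71% and 25.9% were called higher at months 2, 6 and 12, and 3.38%, 3.68% and 23.2% lower. Cholangiocyte markers summed to 219 to 1100 CPM in month 12 CCl4 livers, with the highest sum in replicate 6, against 45.8 to 99.6 CPM in oil livers, and 4 of 8 rose. At month 2 they summed to 70 to 166 CPM in CCl4 livers, against 39.5 to 89.5 CPM in oil livers, and 3 of 8 rose (median 1.2). All 7 tested neutrophil markers rose at month 2 (median 2.42), with sums of 14.9 to 223 CPM in CCl4 livers and 5.5 to 12.7 CPM in oil livers. Markers of continuous endothelium summed to 128 to 237 CPM in month 12 CCl4 livers and 94.4 to 154 CPM in oil livers, and 6 of 8 rose, as did 4 of 8 at months 2 and 6. Sinusoidal endothelial markers summed to 377 to 661 CPM in month 12 CCl4 livers and 511 to 609 CPM in oil livers (2 of 10 rose, 4 fell). Stellate cell markers summed to 337 to 532 CPM and 396 to 491 CPM in these groups (2 of 12 rose, 7 fell). Smooth muscle and myofibroblast markers summed to 25.4 to 56.8 CPM and 20.5 to 52.3 CPM in them (1 of 7 rose, none fell, median 0.09). None of those 7 was called at month 2 or 6. None of these markers was at 0 in any group. Within groups, deviations of Hspg2 followed the continuous endothelial sum with an r of 0.787 over 36 livers, and those of Col18a1 the cholangiocyte sum with an r of -0.643. These were picked as the highest and lowest r over all members and marker lists. For Col18a1 and the hepatocyte sum r was 0.083. The r values describe livers that share scaling.

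The gene most like each member in log2 level over the 36 livers, among 12925 genes, was found by Pearson r. These were Vill for Col4a1 (r = 0.938), Scd2 for Col4a2 (0.932), Abhd2 for Nid1 (0.948), Tagln2 for Nid2 (0.85), Col6a3 for Lama2 (0.95), Abcc1 for Lamc1 (0.923), Dpysl3 for Lamb1 (0.787), Bgn for Hspg2 (0.909), Sept11 for Col15a1 (0.878) and Ddi2 for Col18a1 (0.904). With the group means taken out, r was between 0.565 (Col4a2 and Scd2) and 0.863 (Hspg2 and Bgn). Among the 45 pairs of members the median r was 0.643. The lowest was -0.751, and pairs with Col18a1 were the negative ones.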

How the data were processed

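RNA from 36 mouse livers was sequenced as stranded paired-end libraries after removal of ribosomal RNA. The authors deposited raw counts per gene symbol, mapped with Biojupies to mm10 per the labels and the submitters' processing notes, which also name edgeR 3.30.3 and limma 3.44.3. Not given in the sources used here are the gene annotation and the strand setting of the counting. Counts were fitted with edgeR 4.0.16 in R 4.3.3 (filterByExpr, TMM, quasi-likelihood test) as means of 6 groups over all 36 libraries, with Benjamini-Hochberg adjustment over 15338 genes and a threshold of 0.05. Totals were 19403247 to 28917545 counts. Levels per kilobase used the union of exons in GENCODE vM21. Ratios between members were tested by exact permutation, two-sided, over 10 tests. The code was tested on simulated data. Genes outside the members could be named if among the 3 smallest p of their list at a month, or called against the list's median, and not all of these are named. All other type IV collagen and laminin genes were added to these after their values were seen. One further laminin gene is not reported here. The members and lists were chosen with earlier results of these data known. Alternatives were RLE size factors, library totals, other filters, a replicate block, DESeq2 1.42.0, limma-voom (limma 3.58.1), only the groups compared, another oil group for month 6, and leaving out 4 libraries or each in turn. Applying them to genes outside the members was chosen after seeing the data.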

Additional observations from a re-analysis of the deposited data

Results flagged for a closer look

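In 12 of the 60 combinations of member and group, 1 liver stood apart from the other 5 by Dixon's criterion at the 95% level, which chance meets in about 1 of 20 groups. Month 6 CCl4 replicate 2 stood apart for Col4a1 (97 CPM, the others 65.4 to 75.2), Col15a1 (21.2 CPM, the others 5.19 to 10.7), Lamc1 (38.1 CPM, the others 23.3 to 27.8) and Nid1 (51.2 CPM, the others 24.5 to 29.2). Month 12 oil replicate 2 stood apart for Lama2 (10.2 CPM, the others 4.51 to 6.13), Nid1 (26.2 CPM, the others 17 to 19.9) and Hspg2 (55.3 CPM, the others 22.5 to 32.6). In month 12 CCl4 livers, Nid1 reached 236 CPM in replicate 2 (the others 44.6 to 104) and Col15a1 30.6 CPM in replicate 6 (the others 10.7 to 17.2). Hspg2 was low in month 2 CCl4 replicate 2 (28.1 CPM, the others 39.3 to 44.6) and high in month 2 oil replicate 6 (43.1 CPM, the others 19.5 to 27), and Col15a1 was high in month 0 replicate 6 (17.8 CPM, the others 11 to 12.8).

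The effect of CCl4 differed between month 12 and month 2, by the interaction term, for 4 members, with log2 differences of 1.03 for Col4a1, 0.81 for Col4a2, 1.60 for Nid1 and -0.58 for Col18a1. The same held for Lama1 (-1.55), Lama3 (-1.10), Lama5 (1.98), Lamb3 (0.79), Lamc3 (2.65), Col4a3 (3.41) and Col4a4 (1.59).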

How the results depend on the processing

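Library totals alone changed counts of called genes most, to 3339 at month 2, 9061 at month 6 and 5553 for the difference between months 12 and 2, with 8 and 9 members called at months 2 and 6. They turned the sign for Col18a1 (0.10 at month 2, 0.19 at month 6, 0.14 for month 2 oil against month 0), Lamb1 (0.14 for the difference, 0.0679 against month 0), Lamc1 (0.0784 against month 0), Ctsl (0.23), Itga7 (0.0724) and Mmp19 (0.0408) at month 12 and Bmp1 (0.10) at month 6. Without the 4 libraries, 884 genes and 3 members were called at month 2. With month 12 oil alone, 1115 genes and 2 members were called at month 6, and Col15a1 was at -0.0667. With only the groups compared, 4 members were called between CCl4 months 12 and 6. The difference of Hspg2 between months was -0.0233 with the replicate block, -0.0137 with limma-voom and -0.0148 with only the groups compared.

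Leaving out each library in turn gave 1049 to 2376 genes and 2 to 8 members at month 6. Col15a1 at month 6 ran from -0.0069 to 0.47, the Hspg2 difference from -0.20 to 0.22 and Hspg2 against month 0 from -0.12 to 0.20. Log2 ratios at month 2 ran from -0.004 to 0.046 for Col4a1 over Col4a2, 0.28 to 0.509 for Nid1 over Nid2, 0.349 to 0.626 for Col15a1 over Col18a1 and -0.209 to -0.095 for Lamb1 over Lamc1, and at month 12 from 0.318 to 0.651 for Lama2 over Lamc1. The cause of these changes was not tested. Without month 12 CCl4 replicate 6 the month 12 minus month 2 difference of Lamc3 was 1.68.

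With the replicate block, 7, 5 and 9 members were called at months 2, 6 and 12, and 4 for the difference. Of all 15338 tested genes, 1477, 1652, 7482 and 3107 were called with it in that order. At most 3 of 6 same-numbered pairs had a correlation over 0.1 in any comparison, so the block pairs livers by number only. RLE size factors left each count of called members as it was. Effects between CCl4 months 6 and 2 and between oil months were recomputed as counts only.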
